A study of Mus musculus with 54 samples.

Results

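Places that carried H3K4me1, the single methyl mark on lysine 4 of histone H3, were compared between cardiac precursors (CP) and cardiomyocytes (CM) derived from mouse embryonic stem cells. The deposited lists of enriched regions from 3 CP and 3 CM libraries were merged over chromosomes 1 to 19 and X into 130046 union regions. A union region was gained when it overlapped no CP list and all 3 CM lists, lost in the reverse case, and kept when it overlapped all 6 lists. There were 4125 gained regions (3.17%), 3778 lost regions (2.91%) and 7589 kept regions (5.84%). The remaining 114554 regions were called in some other combination of libraries. The calls chose these classes, so the counts are a description with no test.

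The cells were of the 129/Ola strain, with no added allele in the labels, and were sampled as embryonic stem cells at day 0 (ESC), mesoderm at day 4 (MES), CP at day 5.3 and CM at day 10. They grew as embryoid bodies in serum-free medium, received Activin A, BMP4 and VEGF during reaggregation, and were then plated in medium with VEGF, basic FGF and FGF10. Each stage gave 3 libraries of H3K4me1 and 2 each of H3K27ac and H3K4me3. For H3K27me3 there were 2 from ESC and 3 from every other stage. The form of RNA polymerase II with a phosphate on Ser5 (RNAPII Ser5P) gave 1 from ESC and 2 from the others. No sort of the cultures is described, so a mark in more cells and a stronger mark per cell cannot be told apart. The cell type label of the CM libraries of H3K27ac reads embryonic stem cells, whereas their title, source and time point give CM, and they were used as CM.

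H3K4me1 is laid down largely by the enzymes MLL3 and MLL4 at enhancers and beside active promoters, and it often precedes use of an enhancer. H3K27ac, placed by the acetyltransferases p300 and CBP, marks enhancers and promoters in use, and H3K4me3 marks promoters. H3K27me3 is placed by Polycomb repressive complex PRC2, and RNAPII Ser5P is found near the start of transcription. Positions are in the mm9 build, and gene names were not used here, so the labelled cell types were not checked against their marker genes.

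The CP lists held 82089, 63165 and 31571 regions in replicates 1, 2 and 3, and the CM lists held 40906, 63908 and 43770. CP replicate 1 was the longest list and CP replicate 3 the shortest, with every CM list between them. The mean number was 58942 ± 25522 for CP (SD, n = 3) and 49528 ± 12536 for CM (SD, n = 3), so the stages overlapped. The lists covered 45.4 ± 17.9 Mb in CP and 36.4 ± 2.66 Mb in CM. Many union regions rested on 1 library, with 40297 called in 1 CP list alone and 20966 in 1 CM list alone. CP replicate 1 alone accounted for 25813 of these and CP replicate 3 for 3554.

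**Figure D1:**
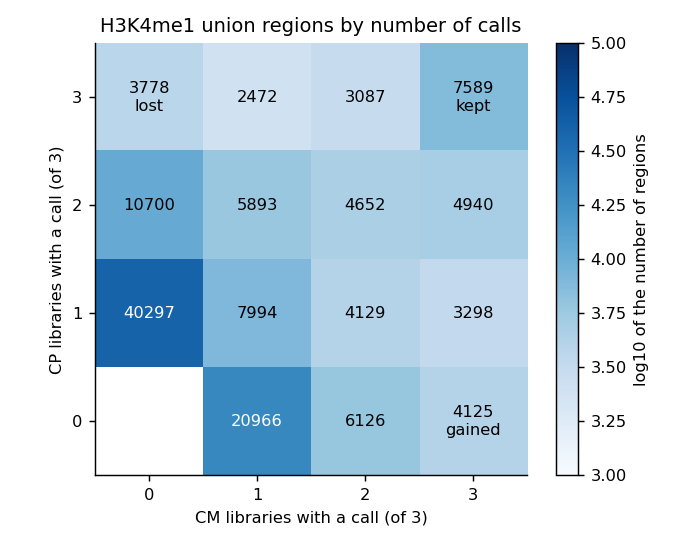
Number of H3K4me1 union regions by how many of 3 CM libraries (horizontal axis) and 3 CP libraries (vertical axis) called them, with colour on a log10 scale. The corners hold the 4125 gained, 3778 lost and 7589 kept regions, and 40297 regions were called in 1 CP library and no CM library.

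Which class was larger depended on the libraries. Without CP replicate 3, 11197 regions were lost and 4306 gained, and without CP replicate 2, 5424 were lost and 4791 gained. Without CP replicate 1 there were 6702 gained and 6047 lost, and without CM replicate 1 there were 7375 gained and 4303 lost. With presence in 2 of 3 libraries in place of 3, 10251 regions were gained and 14478 lost, and with equal numbers of top regions from every list 3659 were gained and 1806 lost. No direction of the balance between gain and loss is therefore given. Libraries of the same stage had a mean Jaccard index (shared covered bases over all covered bases) of 0.393, against 0.249 between stages. The difference of 0.144 gave a one-sided p = 0.1 in an exact permutation test, the smallest this design allows. CP replicates 1 and 3 had an index of 0.269. This was below CP replicate 1 with CM replicate 1 (0.279) and CP replicate 2 with CM replicate 2 (0.282). Every other pair of the same stage lay above every pair of different stages.

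Gained and lost regions were short beside kept regions. Gained regions had a median length of 900 bases (interquartile range 550 to 1375) and lost regions 1000 bases (600 to 1575). Kept regions had a median of 2125 bases (1300 to 3525) and reached 49400 bases, against a median of 475 over the whole union. Kept regions covered 21 Mb, gained regions 4.44 Mb and lost regions 4.56 Mb. At least 2000 bases were reached by 10.9% of gained, 14.2% of lost and 54.1% of kept regions. The union region grows with the number of lists merged into it, which bears on kept regions most.

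Peak heights have no common scale between libraries, so each was turned into its percentile within its own list. A union region took the highest percentile among the regions of that list it held. A longer region can hold more of them, which bears on kept regions most. Gained regions had median percentiles of 46.4, 55.6 and 55.7 in CM replicates 1, 2 and 3. Lost regions had 51.9, 57 and 57.6 in the CP replicates. Both classes thus lay near the middle of the lists that held them. Kept regions lay higher, at 83.5, 82.8 and 75.9 in CP and 70.7, 79.2 and 73.2 in CM.

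Regions just outside the rule were lower. The 6126 regions in 2 of 3 CM lists and no CP list had median percentiles of 32.5, 38.1 and 36.5 and a median length of 475 bases. The 10700 in 2 of 3 CP lists and no CM list had 47.5, 44.1 and 30.4 and 600 bases. The minimum ratio of target to background in the H3K4me1 lists of CP and CM was 5. This ratio was under 5.5 at 40.2%, 14.8% and 28.9% of gained regions in CM replicates 1, 2 and 3, and at 12.3%, 18.1% and 49% of lost regions in the CP replicates. Over the union regions called in each list it was 44.9%, 22.8% and 40.3% in CM and 26%, 26.1% and 43.4% in CP, above the changed classes in every list except CP replicate 3. How many of the missing calls lay just under that limit was not tested.

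H3K4me1 had been present in MES at most lost regions and at few gained ones. The ESC and MES lists were not used to choose the regions. Of the gained regions, 11.3%, 4.87% and 5.96% overlapped H3K4me1 in ESC replicates 1, 2 and 3, and 7.25%, 3.76% and 3.61% in the MES replicates. Of the lost regions, 29.6%, 12.5% and 16.4% did so in ESC, and 66.9%, 58.7% and 53.6% in MES. For kept regions the shares were 55.7%, 21.1% and 34.9% in ESC, and 79.1%, 69% and 65.8% in MES. Over the union they were 23.8%, 10.3% and 13.8% in ESC and 37.8%, 28.5% and 25.9% in MES. The gained class was below the union in each of the 6 libraries, and the lost class was above it in each, by less in ESC than in MES.

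From ESC to MES the mean share was 19.5% ± 8.98 and 59.7% ± 6.72 at lost regions, and 37.2% ± 17.4 and 71.3% ± 6.94 at kept regions (SD, n = 3 each). Neither pair of stages overlapped, and each gave p = 0.1 in a two-sided exact permutation test, the smallest possible with 3 libraries a stage. Over the union the means were 16% ± 7.01 and 30.7% ± 6.27, so the share was larger in MES at union regions in general too. At gained regions the means were 7.39% ± 3.47 and 4.87% ± 2.06, which overlapped (exact permutation p = 0.5, n = 3 each).

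**Figure D2:**
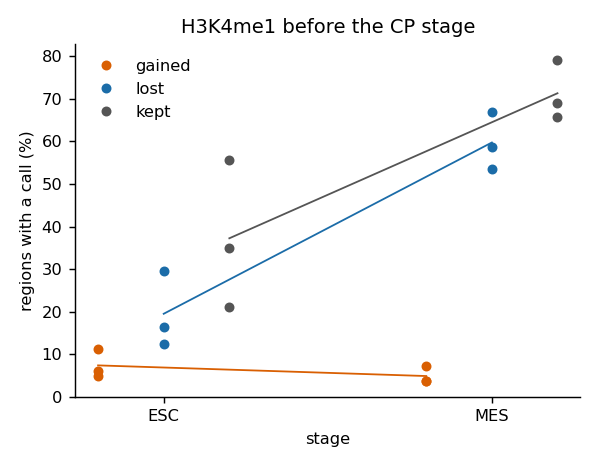
Share of gained, lost and kept regions (percent) that overlapped an H3K4me1 call in each ESC and MES library. Points are libraries (n = 3 per stage) and lines join the means. The lost class lies between 53.6% and 66.9% in MES, and the gained class between 3.61% and 7.25%.

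Counted region by region, 3288 gained regions (79.7%) had H3K4me1 in no ESC and no MES library, against 849 lost (22.5%), 907 kept (12%) and 45.8% of the union. Lost regions were called in every MES library in 1713 cases (45.3%), kept regions in 4364 (57.5%) and gained regions in 54 (1.31%), against 16.7% of the union. A set of 431 gained regions (10.4%) had H3K4me1 in at least 1 ESC library and in no MES or CP library. Only 82 gained regions (1.99%) had it in every ESC and no MES library, against 0.972% of the union. ESC replicate 1 had the longest ESC list, with 83818 regions against 33958 and 43361. H3K4me1 in at least 1 ESC and no MES library was seen at 2.65% of lost regions and 6.64% of the union.

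H3K27ac, measured in separate libraries, changed with H3K4me1. Gained regions overlapped H3K27ac in 8.7% and 3.88% of cases in the ESC libraries, 5.12% and 1.77% in MES, 5.79% and 3.1% in CP, and 34% and 44.7% in CM. Both CM values lay above all 6 earlier ones. Lost regions had 18.5% and 8.44% in ESC, 35.7% and 22.7% in MES, 26.3% and 18.5% in CP, and 4.34% and 4.61% in CM. Both CM values lay below all earlier ones. Kept regions had 64.1% and 48% in CP and 55.4% and 58.3% in CM, which overlapped. Over the whole union the shares were 21.2% and 16% in CP and 19.9% and 23.8% in CM.

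The share at gained minus that at lost regions within a library averaged -7.17 percentage points for ESC and -25.7 for MES. It was -17.9 ± 3.6 for CP and 34.9 ± 7.34 for CM (SD, n = 2 each). This difference varied between the 4 stages in an exact permutation test of the stage labels (p = 0.00952, the smallest the 8 libraries allow, adjusted p = 0.0381 over 4 targets). The test asks whether any stages differ. An exact permutation test of CP against CM alone has 2 libraries each and cannot go below p = 0.333. The adjusted p was 0.0762 without ESC replicate 1, ESC replicate 2, CP replicate 1 or CP replicate 2 and 0.114 without MES replicate 1 in the same exact test, while CM lay 50.3 to 55.3 points above CP in these.

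**Figure D3:**
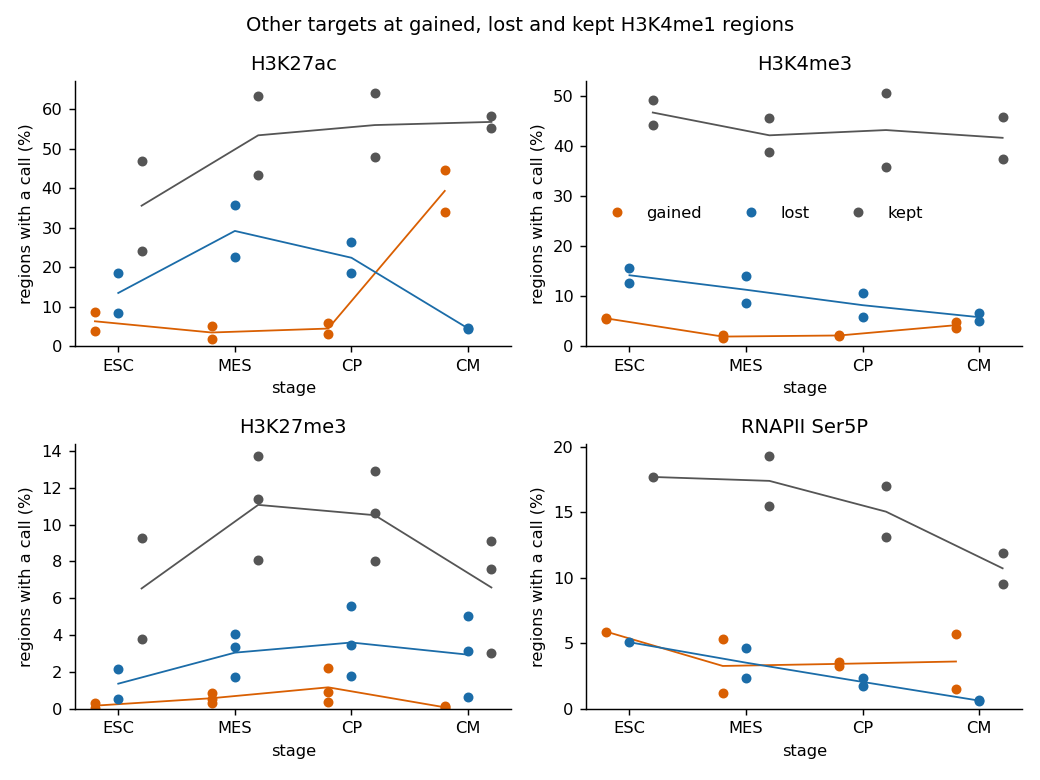
Share of gained, lost and kept H3K4me1 regions (percent) that overlapped H3K27ac, H3K4me3, H3K27me3 or RNAPII Ser5P in each library by stage. Points are libraries and lines join the means; vertical scales differ between panels. For H3K27ac, gained regions reach 34% and 44.7% in CM and lost regions lie at 4.34% and 4.61%.

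H3K27ac was itself gained, from no CP library to both CM libraries, at 1008 gained regions (24.4%), 13 lost regions (0.344%) and 430 kept regions (5.67%). Across the union this applied to 4.33% of regions. It was lost, from both CP libraries to no CM library, at 404 lost regions (10.7%), 9 gained regions (0.218%) and 438 kept regions (5.77%), against 2.38% of the union. No H3K27ac was called in any of the 8 libraries at 1829 gained (44.3%) and 1578 lost regions (41.8%), a little under the 48.9% of the union. Among kept regions this was 662 (8.72%). The median length was 900 bases for gained and 1000 for lost regions, but 475 for the union. The shares without H3K27ac were not compared at equal length.

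H3K27ac was called more often at longer and higher regions. Among gained regions under 500 bases, 20% and 28.6% carried it in the CM libraries, and among those of at least 2000 bases, 56.5% and 67.2%. With a mean percentile under 25 it was 13.8% and 24%, and from 75 up 55.6% and 67.9%. Lost regions had 16.3% and 12.7% in CP under 500 bases, and 46.8% and 30.7% from 2000 bases. A longer region has more room for an overlap. In each length group the gained regions in CM had larger shares than the lost regions in CP.

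**Figure D4:**
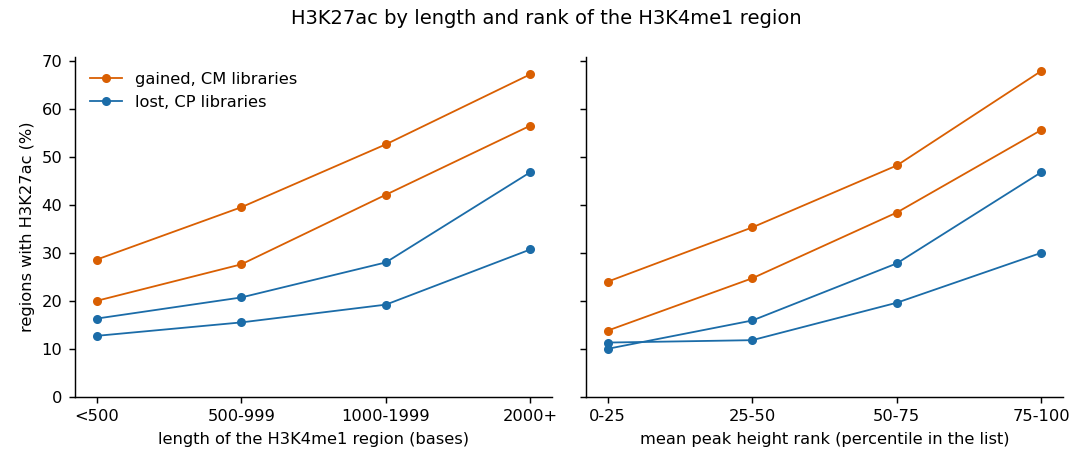
Share of gained regions with H3K27ac in the 2 CM libraries and of lost regions with H3K27ac in the 2 CP libraries (percent), by length of the region in bases (left) and by mean peak height percentile in the H3K4me1 lists (right). Each line is a library. Gained regions go from 20% and 28.6% to 56.5% and 67.2% with length.

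Gained regions with and without earlier H3K4me1 had like shares of H3K27ac in the CM libraries, except the few called in every MES library. The 3288 with no H3K4me1 in ESC or MES had 34% and 45.1%. The 431 with H3K4me1 in at least 1 ESC and no MES library had 34.3% and 42.7%. The 406 with H3K4me1 in at least 1 MES library had 33.5% and 43.3%. The 54 of them with H3K4me1 in every MES library were lower, at 27.8% and 35.2%. The 431 had carried H3K27ac at 19.3% and 42.2% in the ESC libraries, 1.39% and 6.5% in MES and 3.25% and 8.35% in CP. For each pair the lower value is given before the higher. Lost regions called in every MES library had H3K27ac at 39.8% and 56.2% in MES and 16.1% and 25.9% in CP. These shares carry no test.

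Most changed regions had no H3K4me3. It was in no library of any stage at 89.9% of gained, 75.4% of lost and 33.7% of kept regions, and at 66.5% of the union. In CM, H3K27ac in both libraries without H3K4me3 in either, a pattern typical of active enhancers, was seen at 1065 gained (25.8%), 31 lost (0.821%) and 1479 kept regions (19.5%), and at 5.42% of the union. In CP it was seen at 54 gained (1.31%), 413 lost (10.9%) and 1205 kept regions (15.9%), and at 3.74% of the union. Within 5 kb of a place with H3K4me3 in all 8 of its lists lay 11.6% of gained, 16.8% of lost and 42.3% of kept regions, and 31.6% of all others.

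H3K4me3 itself overlapped gained regions at 2.25% and 1.99% in CP and 4.82% and 3.54% in CM. Lost regions had 10.6% and 5.74%, then 6.59% and 4.95%. The union was higher at both stages, with 22.1% and 19.3% in CP and 21.8% and 19.7% in CM. It was gained at 33 gained (0.8%) and 9 lost regions (0.238%), against 0.538% of the union, and lost at 41 lost (1.09%) and 2 gained regions (0.0485%), against 0.434% of the union. The difference between gained and lost regions did not pass the test across stages (exact permutation, adjusted p = 0.381, n = 8).

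H3K27me3 was rare at gained regions. It overlapped 2.21%, 0.897% and 0.388% of them in CP and 0.17%, 0.0727% and 0% in CM, with no overlap between the stages (two-sided exact permutation p = 0.1, the smallest possible, n = 3 each). Over the union the shares were 8.59%, 6.53% and 4.36% in CP and 5.34%, 3.94% and 1.13% in CM, so the mean was lower in CM there too. The lists of this mark differ widely in length, and CM replicate 3 held 2929 regions against 20484 in CM replicate 1. Lost regions had 5.58%, 3.44% and 1.77% in CP and 5.03%, 3.12% and 0.662% in CM, which overlapped. In all 3 CM libraries H3K27me3 lay at 0 gained, 22 lost (0.582%) and 226 kept regions (2.98%), and at 1.1% of the union. It was lost from CP to CM at 12 gained (0.291%), 5 lost (0.132%) and 68 kept regions (0.896%), against 0.57% of the union. The test across stages gave an adjusted p = 0.618 (exact permutation, n = 11).

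RNAPII Ser5P overlapped 3.61% and 3.25% of gained regions in CP and 1.5% and 5.72% in CM, where the libraries lay on either side of the CP values. Lost regions had 2.33% and 1.77% in CP and 0.582% and 0.662% in CM. Over the union it was 5.65% and 5.32% in CP and 2.62% and 4.75% in CM, so the polymerase shares were also lower in CM over all regions together. It was gained at 20 gained (0.485%) and 3 lost regions (0.0794%), against 0.322% of the union. It was lost at 43 gained (1.04%) and 26 lost regions (0.688%), against 1.25% of the union. The test across stages gave an adjusted p = 0.618 (exact permutation, n = 7).

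Kept regions were also sorted by height, as a description with no test. The 3 CM percentiles all lay above the 3 CP percentiles at 464 of 7589 kept regions (6.11%) and all below at 1365 (18%). The balance between these counts depended on the scale, so no change of height is read from it. Ranked among the kept regions alone, 917 (12.1%) were higher and 898 (11.8%) lower in CM. By covered bases, 407 (5.36%) were higher and 1531 (20.2%) lower. With 3 libraries a stage, such a full separation also arises at some regions with no difference between stages. How many of these regions that accounts for was not tested.

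H3K27ac differed between these groups of kept regions. At the 464 with a higher percentile in CM it was called at 59.5% and 38.8% in CP and 74.6% and 74.1% in CM. At the 1365 with a lower percentile it was called at 70.4% and 52.6% in CP and 39.8% and 40.6% in CM. The share at the higher minus that at the lower group was -2.9 points for ESC and -23.5 for MES, then -12.4 for CP and 34.2 for CM. It varied between stages (exact permutation p = 0.00952, the smallest possible, adjusted p = 0.0381 over 4 targets, n = 8). This test was added after the lists were seen. Ranks among kept regions and covered bases gave the same sides, with H3K27ac in CM at 71.6% and 73.8% against 38.1% and 39.8%, and at 77.9% and 83% against 43.8% and 44.5%. In the same exact permutation test H3K4me3, H3K27me3 and RNAPII Ser5P had adjusted p = 0.356, 0.461 and 0.133.

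**Figure D5:**
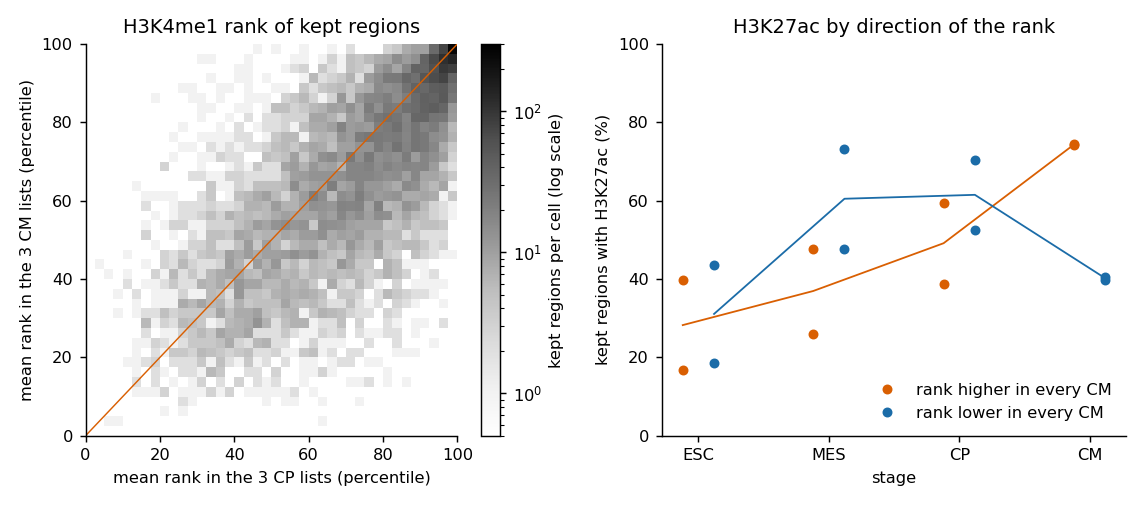
Left, mean H3K4me1 peak height percentile of the 7589 kept regions in the CP lists (horizontal) and the CM lists (vertical), shaded by number of regions on a log scale with the line of equal percentiles. Right, share of kept regions with H3K27ac (percent) per library by stage, for the 464 with a higher and the 1365 with a lower percentile in every CM list; points are libraries and lines join means. The groups change order between CP and CM.

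The kept regions with the largest changes of percentile were examined one by one. At chr4:57596551-57602800 (6250 bases) the percentiles were 44.6, 40.7 and 6.81 in CP and 96.6, 99.4 and 91.1 in CM. The region covered 950, 350 and 25 bases in the CP lists and 5125, 5375 and 5725 in the CM lists, so it widened as well. It had no H3K4me1 in ESC or MES, and H3K27ac was called in 1 CP and both CM libraries, with RNAPII Ser5P in the same numbers. At chr13:52596326-52597750 (1425 bases) the percentiles went from 54.8, 8.37 and 17.2 to 88.9, 93.8 and 85.3, and H3K27ac was called in every CP and CM library. The other 3 largest increases, at chr2:58338976-58342825, chr2:103500851-103502825 and chr3:51672651-51674600, had H3K27ac in 1, 2 and 1 CM libraries.

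In the other direction, at chr5:104185151-104187950 (2800 bases) the percentiles were 85.7, 96.8 and 77.1 in CP and 26.2, 2.88 and 13.5 in CM. H3K4me1 was in all ESC and MES libraries there, and H3K27ac in both ESC libraries and none later. At chr17:45651326-45658725 (7400 bases) they were 95.9, 96.8 and 91.8 and then 37.7, 26.6 and 9.99, with H3K27ac in both MES and both CP libraries and no CM library. At chr13:38245151-38247900 H3K4me1 was lower in CM, from 94.8, 98.8 and 93.8 to 17.4, 48.8 and 18.5, yet H3K27ac and H3K4me3 were both called in both CM libraries and not in CP. At chr1:167146051-167147825 and chr1:72058751-72062400 H3K27ac was called in 1 and 2 CP libraries and absent from the CM lists.

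The longest gained region, chr17:56160626-56168100, spanned 7475 bases and had percentiles of 99.9, 98.3 and 98.3 in the CM lists. Its peak heights, in the units of each list, were 142, 70 and 114. H3K27ac was in 1 CP and both CM libraries, and RNAPII Ser5P in every library of the 4 stages. At chr4:138786151-138792225 (6075 bases) H3K4me1 was called in 2 ESC and 1 MES libraries before the gain, with H3K27ac in both ESC, 1 CP and both CM libraries. At chr5:122610776-122617850 (7075 bases) H3K4me1 was in all 3 ESC libraries and H3K4me3 in both ESC libraries, and no H3K27ac was called in CM. At chr15:76848226-76853975 (5750 bases) there was no H3K4me1 in ESC or MES and H3K27ac in both CM libraries. At chr4:150469401-150475075 (5675 bases) both CM libraries of H3K27ac, H3K4me3 and RNAPII Ser5P had a call and no CP library did. H3K4me3 had been called there in both ESC libraries, and H3K27ac and H3K4me1 in 1 ESC library each.

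The longest lost region, chr1:137023101-137031525, spanned 8425 bases with CP percentiles of 95.9, 92.7 and 61.9. It held 8425, 3550 and 1475 covered bases in the 3 CP lists, so its length came from replicate 1. H3K4me1 was called there in 2 ESC and all MES libraries, and H3K27me3 in 2 CM libraries and none before. H3K27ac was called there in 1 ESC, 1 MES, no CP and 1 CM libraries. At chr10:76650201-76657825 (7625 bases) H3K27ac was called in all 6 libraries before CM and in neither CM library. The longest lost regions also included chr2:27230451-27237475 (7025 bases), with no H3K27ac in CP. At chr8:123869276-123876225 (6950 bases) and chr5:75272101-75278900 (6800 bases) H3K27ac was in 1 MES, both CP and no CM libraries.

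The highest gained regions stood apart from that pattern. Of the 5 with the highest mean percentile, chr9:46775551-46778175, chr11:6461676-6464500, chr17:30686276-30688400 and chr6:50316326-50317450 had no H3K27ac in any of the 8 libraries and no H3K4me1 in ESC or MES. Their peak heights in CM replicates 1, 2 and 3 were 153, 90 and 179 for the chr9 region, 163, 86 and 149 for the chr11 region, 133, 83 and 150 for the chr17 region and 133, 80 and 165 for the chr6 region. The ratio of target to background at the chr9 region was 5.02, 5.43 and 5.18, near the lowest in the lists, and at the chr11 region it was 5.93, 6.48 and 6.37. At the chr17 region it was 5.15, 5.35 and 5.86, and at the chr6 region 5.93, 6 and 6.38. The chr9 region also had H3K27me3 in 1 MES and 1 CM library and RNAPII Ser5P in 1 CM library. The next, chr2:35568851-35571175, had H3K27ac in both CM libraries. Among the 62 gained regions with a mean percentile from 95 to under 99, 50 (80.6%) had H3K27ac in both CM libraries, against 2 of the 6 from 99 up.

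The highest lost regions were more varied. At chr8:108042851-108047600 (4750 bases) the CP percentiles were 100, 99.4 and 99.8. H3K4me3 was in both libraries of all 4 stages there, H3K27ac was in both CP and no CM libraries, and H3K27me3 was in 2 MES, 1 CP and 2 CM libraries. At chr12:102233001-102238300 (5300 bases) H3K27ac and RNAPII Ser5P were in both CP and no CM libraries, and H3K27me3 appeared in 2 CM libraries. At chr5:150133151-150135950 (2800 bases) H3K4me1 was in all 3 MES libraries and H3K27ac in both CP libraries, whereas chr5:150169576-150173125 (3550 bases) had neither H3K27ac nor earlier H3K4me1. At chr8:97400301-97401175 (875 bases) H3K4me3 was called in both ESC, both MES, 1 CP and both CM libraries.

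Gained regions lay nearer to each other than to lost ones. The median distance was 54125 bases to the nearest other gained region and 235525 bases to the nearest lost region, although the classes are of like size, and these distances carry no test. Lost regions lay a median of 63313 bases from the nearest other lost region and 238538 bases from the nearest gained one. Within 5 kb, 19.6% of gained regions had another gained region and 0.873% a lost one. For lost regions, 16.2% had another lost region and 1.01% a gained one. Merging list regions closer than 1 kb left 3449 gained and 2927 lost regions. Whether close neighbours are parts of 1 enriched stretch was not tested. Windows of 100 kb with at least 3 gained regions numbered 254 and held 22.5% of them, and for lost regions there were 215 such windows with 19.5%. Such windows were not counted for the whole union. The densest gained window, chr17:82000001-82100000, held 11 gained, 0 lost and 0 kept regions among 49 union regions. Its neighbour chr17:81900001-82000000 held 9 gained among 38 union regions. H3K27ac overlapped none of the gained regions of these windows in CM replicate 1, and 3 and 2 of them in CM replicate 2.

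Another window, chr2:119900001-120000000, held 10 gained regions among 31 union regions. H3K27ac overlapped 8 and 9 of these gained regions in CM and 2 and 2 in CP. The densest lost windows were chr6:4900001-5000000 with 7 lost regions, chr19:37700001-37800000 with 7 and chr7:142700001-142800000 with 6. They held 23, 14 and 22 union regions, and the chr6 window also held 1 gained region. H3K27ac in CP overlapped 3 and 2, 2 and 1, and 1 and 2 of the lost regions. In CM it overlapped none of them in any of the 3 windows.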

How the data were processed

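Reads were aligned with Bowtie to mm9, per the submitters' processing notes; the Bowtie version, the caller of the regions and the settings used are not given in the sources used here. The labels list 54 libraries, and 46 region lists were used, leaving out 8 whole cell extracts without one. The deposited lists give region lengths as a number of bases (recorded under other units). Their heights and their totals for target and background were deposited with no unit and treated as signal, so heights were compared only as percentiles within a list. Depth is unknown and no counting interval was made. One list without a header was read in the column order of the others.

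Lists were merged where they overlapped, regions that only touched stayed apart, and an overlap of at least 1 base made a call. For each of 4 other targets, the share called at gained minus that at lost regions was computed per library, and its sum of squares between stages was tested by exact permutation of stage labels, with Benjamini-Hochberg adjustment over the 4 targets and a threshold of 0.05. The test was checked on simulated data with 2 libraries at each stage. The unequal sets of H3K27me3 and RNAPII Ser5P libraries were not simulated. Replicates are biological per the series' design. Named regions are the 5 longest and 5 highest gained and lost regions, the 5 kept with the largest change of percentile each way, and the 3 densest windows of gained and of lost regions. Members and tests were chosen with earlier results of these data known. Gene lists and marker lists were not run and no sequence is printed, since no mm9 genome or annotation was used here. Python 3.11.15, numpy 2.4.6, pandas 2.3.3, scipy 1.17.1 and matplotlib 3.10.9 were used.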

Additional observations from a re-analysis of the deposited data

How the results depend on the processing

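Gained, lost and kept counts were 2289, 2107 and 4118 with regions under 500 bases left out, 10251, 14478 and 20268 with presence in 2 of 3 libraries, and 3659, 1806 and 4595 with the same number of top regions in every list. With list regions closer than 1 kb merged they were 3449, 2927 and 7760. Leaving out 1 library gave 4306 to 7375 gained, 4303 to 11197 lost and 7994 to 11254 kept regions. An overlap of 50% of the shorter region cannot change these counts, since a list region lies inside its union region. The union over all 12 H3K4me1 lists, added after the lists were seen, gave 4045, 3623 and 7729.

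The adjusted p for H3K27ac at gained against lost regions ranged from 0.0381 to 0.114 with a library left out. For H3K4me3 it was 0.0381 with equal numbers of top regions. The CM minus CP difference of H3K27me3 changed sign with equal numbers of top regions (exact permutation, adjusted p = 0.322), with short regions left out (0.533) and without CP replicate 3 or CM replicate 1 (range over libraries 0.254 to 0.948). For RNAPII Ser5P it changed sign without CM replicate 2 (range 0.178 to 0.689). Among kept regions, RNAPII Ser5P reached adjusted p = 0.0381 (exact permutation) by covered bases and ranged from 0.0444 to 0.356 with a library left out. H3K27me3 ranged from 0.0152 to 0.781 there, with the sign changed without CM replicate 1. The cause was not tested. All are exact permutation tests.

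Same-numbered CP and CM libraries deviated together with correlations of 0.111, 0.106 and 0.0435, not all over 0.1, so the numbers were not taken as pairs, although each library correlated best with its own number. With the replicate block, the adjusted p of H3K27ac was 0.116 at gained against lost regions and 0.0556 at kept regions (exact permutation), with raw p = 0.0417 in each, the smallest the block allows.

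No depth is given, so a missing call cannot be told from low depth.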

Other observations

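Chromosome X stood out after the counts by chromosome were seen. It held 26 gained regions among its 3054 union regions (0.851%), against 2.58% to 4.36% on the autosomes, and X was also lowest for lost regions (2.42%, autosomes 2.51% to 3.98%) and kept regions (3.31%, autosomes 4.73% to 7.32%). The share of each whole H3K4me1 list that lay on X was 2.31%, 1.29% and 3.34% in CP replicates 1, 2 and 3 and 2.57%, 0.823% and 1.72% in CM replicates, so the stages overlapped. CM replicate 2 and CP replicate 2 had the lowest shares of their stages. The share on X did not pass a test across the 4 stages for H3K4me1 (exact permutation p = 0.627, adjusted p = 0.962 over 5 targets, n = 12).

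None of the 4 other targets was called in CM at 1952 gained regions (47.3%), 85.7% of lost and 22.1% of kept regions, against 63.1% of the union. In CP this held for 86.2% of gained and 17.9% of kept regions, and for 60.2% of lost regions, near the 62.2% of the union. Lost regions were longer than the union, with medians of 1000 and 475 bases. These shares were not compared at equal length.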
